A study of Mus musculus with 4 samples.

Results

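The 10 genes described here encode transcription factors that steer the choice between the CD4 and CD8 lineages: *Zbtb7b*, *Gata3*, *Tox*, *Myb*, *Satb1*, *Runx1*, *Runx3*, *Cbfb*, *Patz1* and *Bcl11b*. They were chosen by their known function, with earlier results of these data known, and matched by symbol. All 10 were among the 24421 genes listed. Each was measured by RNA sequencing of CD69+CD4+CD8+ (CD69+DP) thymocytes, sorted from adult C57BL/6 mice 6 weeks old. The 2 Foxa1/2cKO samples came from Foxa1 fl/fl Foxa2 fl/fl mice with the CD4Cre transgene, in which the *Cd4* promoter drives Cre from the DP stage onwards. The 2 control samples came from mice with both pairs of floxed alleles and no CD4Cre, so the Cre transgene and the deletion cannot be told apart. The sorts were independent and used different mice, with 2 mice of each genotype per sort.

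A DP thymocyte that has received a positively selecting TCR signal carries both co-receptors and must settle on one of them. Zbtb7b (ThPOK) commits cells restricted by MHCII to the CD4 fate and opposes Runx3, which silences *Cd4* and sets up the cytotoxic programme in CD8 cells. Gata3, Tox and Myb act upstream of *Zbtb7b* on the CD4 side, Runx1 and Runx3 bind DNA with their common partner Cbfb, and Patz1 (MAZR), Satb1 and Bcl11b act at the silencers and enhancers of the lineage genes. The comparison asks whether these regulators differed in level between Foxa1/2cKO and control cells in the course of positive selection.

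Of the 10 genes, 0 passed an adjusted p of 0.05 between Foxa1/2cKO and control (limma), against 0.00928% of all genes tested, and the 2 Foxa1/2cKO samples differed from each other more than the 2 controls did in most of them. In Foxa1/2cKO 2, *Zbtb7b* was 4.43-fold below the control mean and *Runx3* 1.62-fold below it, while *Tox* stood at 1.57 times its control mean and *Myb* was 0.58 higher on the log2 scale. In Foxa1/2cKO 1, *Zbtb7b* and *Runx3* lay within the range of the controls. *Runx1*, lower in both Foxa1/2cKO samples, and *Cbfb* and *Patz1*, higher in both, were the 3 genes whose groups did not overlap, as was found for 36.7% of all genes tested.

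The start sites of 9 of the 10 genes were matched to RefSeq promoter windows on GRCm38.p6 (the assembly of mm10), each 300 bases long with 250 before the start and 50 after it. 4 of the 17 windows are shown, because they belong to genes on which the results turn and hold a motif of the Runx family, that of *Runx1* and *Runx3*, or of the forkhead family, that of *Foxa1* and *Foxa2*. Capitals mark TGTGGT, the core bound by Runx proteins, or its reverse complement ACCACA, and TGTTTAC, a forkhead core, searched on both strands, and no copies of one overlapped the other.
Runx3, distal start (chr4:135120395-135120694, plus strand): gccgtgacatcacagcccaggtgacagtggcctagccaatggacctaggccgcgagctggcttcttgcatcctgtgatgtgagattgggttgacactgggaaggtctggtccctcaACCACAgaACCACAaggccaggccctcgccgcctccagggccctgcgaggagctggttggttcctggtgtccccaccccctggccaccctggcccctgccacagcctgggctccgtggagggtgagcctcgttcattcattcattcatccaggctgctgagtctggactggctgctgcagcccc
Runx1, distal start (chr16:92826025-92826324, minus strand): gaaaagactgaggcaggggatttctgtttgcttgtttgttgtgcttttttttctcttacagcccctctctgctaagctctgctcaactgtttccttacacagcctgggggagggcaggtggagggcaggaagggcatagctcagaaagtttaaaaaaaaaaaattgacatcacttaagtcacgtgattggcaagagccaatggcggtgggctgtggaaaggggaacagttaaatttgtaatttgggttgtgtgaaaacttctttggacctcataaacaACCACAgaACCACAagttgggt
Zbtb7b, internal start (chr3:89387622-89387921, minus strand): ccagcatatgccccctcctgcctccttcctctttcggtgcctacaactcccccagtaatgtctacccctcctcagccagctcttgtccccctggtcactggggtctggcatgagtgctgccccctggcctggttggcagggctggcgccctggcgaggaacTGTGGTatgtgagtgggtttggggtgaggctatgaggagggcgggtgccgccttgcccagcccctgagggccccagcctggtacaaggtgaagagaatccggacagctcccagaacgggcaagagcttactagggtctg
Myb (chr10:21160935-21161234, minus strand): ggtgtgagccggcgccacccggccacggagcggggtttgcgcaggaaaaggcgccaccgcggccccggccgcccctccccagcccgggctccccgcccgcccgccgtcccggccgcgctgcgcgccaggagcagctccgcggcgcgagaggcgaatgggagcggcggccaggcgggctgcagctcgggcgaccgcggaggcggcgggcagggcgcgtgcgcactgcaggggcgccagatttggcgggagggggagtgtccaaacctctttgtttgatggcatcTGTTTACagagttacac

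The distal windows of *Runx1* and *Runx3* each held the Runx core as a pair on the same strand with 2 bases between the copies. In *Runx3* the copies began 134 and 126 bases before the start, and in *Runx1* 28 and 36 bases after it. The window of the internal *Zbtb7b* start held 1 copy, which began 89 bases before the start. Of all 32851 windows, 16.8% held the Runx core, against 3 of the 17 windows of these genes. The forkhead core was present in 3.65% of all windows and in 1 of the 17, that of *Myb*, where it began 33 bases after the start. These are matches of letters, and binding was not measured here.

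Levels are given in FPKM, which divides fragments by gene length and a measure of depth (a scale on which genes of different length can be compared). The step between the values of a gene gives its smallest whole read numbers, multiplied where needed until the gene length was whole. These came to 10395568 to 14481025 reads per sample over all genes. The depth divisor was 1.109e+07 in Foxa1/2cKO 2, below its 11260891 recovered reads, and above the recovered reads in each other sample. The 10 genes were covered by 446 to 55714 reads per sample. limma was applied to log2(FPKM + 1) of the 10776 genes that reached at least 1 FPKM in at least 2 samples, with Benjamini-Hochberg adjustment, and all 10 genes passed this filter. *Foxa1* and *Foxa2* had a listed value of 0 in each of the 4 samples, so that they do not check the genotypes. The sort was checked by *Cd4* (342 to 446 FPKM), *Cd8a* (475 to 666), *Cd8b1* (592 to 974) and *Cd69* (103 to 121). On the first principal component, which held 65.2% of the variance, Foxa1/2cKO 2 lay at 28.5 and the other samples between -11.0 and -7.42, and for 73.8% of the genes tested Foxa1/2cKO 2 lay outside the range of the other 3 samples. Results that rest on Foxa1/2cKO 2 are therefore given with and without it.

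In control cells the chromatin organiser *Satb1* was the most abundant of the 10, at 558 ± 13.5 FPKM (SD, n = 2). *Myb* followed at 248 ± 10.02, *Bcl11b* at 148 ± 6.39, *Tox* at 116 ± 9.13, *Gata3* at 83.2 ± 7.72 and *Cbfb* at 69.1 ± 1.48 FPKM (SD, n = 2 each). *Patz1* (50.8 ± 1.10) and *Zbtb7b* (48.2 ± 7.26) were next, with overlapping ranges, and *Runx1* (27.6 ± 0.444) and *Runx3* (18.6 ± 0.874) were lowest. All other neighbours in this order were apart in both controls. In Foxa1/2cKO the order of the means was the same, but the ranges of *Bcl11b* and *Tox*, of *Gata3* and *Cbfb*, and of *Zbtb7b* and *Runx1* overlapped.

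**Figure D1:**
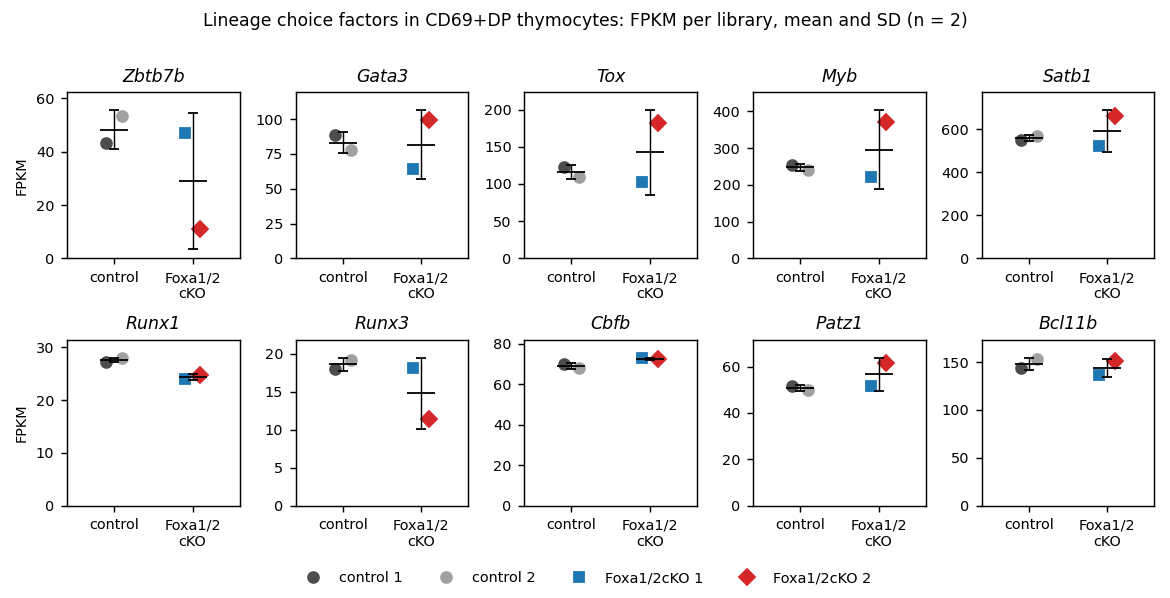
FPKM (linear axes from 0) of the 10 lineage choice factors in each of the 4 samples, with the mean and SD of each group of 2 in black. *Zbtb7b* and *Runx3* are low in Foxa1/2cKO 2 alone, at 10.9 and 11.5 FPKM, and *Tox* and *Myb* are highest there, at 182 and 372 FPKM.

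*Zbtb7b* (ENSMUSG00000028042; chromosome 3 of mm10, 89377644 to 89394776, minus strand) encodes ThPOK, the factor that defines the CD4 lineage. Controls 1 and 2 stood at 43.1 and 53.4 FPKM, Foxa1/2cKO 1 at 47.1 and Foxa1/2cKO 2 at 10.9, from 2380, 2673, 1875 and 446 reads. Foxa1/2cKO 1 lay between the 2 controls, and Foxa1/2cKO 2 lay far below the other 3 samples, with a 95% exact Poisson interval of 9.91 to 11.95 FPKM that covers counting error only. The log2 fold change was -1.03 (standard error, SE, 0.67, limma adjusted p = 0.863). It was -0.03 without Foxa1/2cKO 2 and -2.04 without Foxa1/2cKO 1.

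Between the 2 Foxa1/2cKO samples, *Zbtb7b* differed by -2.01 on the log2(FPKM + 1) scale (Foxa1/2cKO 2 minus Foxa1/2cKO 1). Only 7 of the 10776 genes tested lay further down. These were the microRNA genes *Mir6975*, *Mir6977*, *Mir142* and *Mir3061* and the small RNA gene *Scarna9*, with at most 4 reads in any sample, the histone gene *Hist2h4* and *C1qa*, a complement gene of macrophages. They are named after their values were seen.

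*Runx3* (chromosome 4, 135120652 to 135177990, plus strand), which commits cells to the CD8 lineage, was at 18.0 and 19.2 FPKM in control cells, 18.1 for Foxa1/2cKO 1 and 11.5 for Foxa1/2cKO 2. It was thus low in the same sample as its antagonist *Zbtb7b*, and within the control range in the other Foxa1/2cKO sample. The log2 fold change was -0.34 (SE 0.22, limma adjusted p = 0.863), -0.04 without Foxa1/2cKO 2 and -0.65 without Foxa1/2cKO 1.

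*Runx1* (chromosome 16, 92601466 to 92826149, minus strand), the Runx factor that represses *Cd4* in immature thymocytes, was at 27.3 and 27.9 FPKM in control cells against 24.0 and 24.7 for Foxa1/2cKO. Both Foxa1/2cKO samples lay below both controls, and the SDs of 0.444 and 0.513 FPKM were small beside the difference of the means. The log2 fold change was -0.17 (SE 0.08, unadjusted p = 0.0968, limma adjusted p = 0.863), and leaving out any single sample gave -0.19 to -0.15. With a correction for gene length, chosen after seeing the data, it was -0.23 (unadjusted p = 0.0371, limma adjusted p = 0.874). Under the other alternatives that keep every sample, the unadjusted limma p of *Runx1* ran from 0.0533 (upper-quartile scaling) to 0.234 (replicate block).

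*Cbfb* (chromosome 8, 105170674 to 105217989, plus strand), which encodes the partner that Runx proteins need to bind DNA firmly, was at 70.1 and 68.0 FPKM in control cells against 73.1 and 72.3 for Foxa1/2cKO. Its log2 fold change of 0.07 (SE 0.08, limma adjusted p = 0.872) was the smallest of the 3 genes whose groups did not overlap, and the counting intervals of each control overlapped those of both Foxa1/2cKO samples. *Patz1*, a repressor of *Zbtb7b*, was at 51.5 and 49.98 FPKM in control cells, 51.6 for Foxa1/2cKO 1 and 61.7 for Foxa1/2cKO 2. Foxa1/2cKO 1 exceeded control 1 by less than 1 FPKM, within the 95% exact Poisson intervals of both, and the log2 fold change of 0.15 (SE 0.12, limma adjusted p = 0.863) became 0.02 without Foxa1/2cKO 2.

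*Gata3*, *Tox*, *Myb* and *Satb1* were spread to either side of the controls in Foxa1/2cKO. *Gata3* (chromosome 2, 9857078 to 9890034, minus strand), which is needed for CD4 differentiation, was at 88.6 and 77.7 FPKM in control cells, 64.2 for Foxa1/2cKO 1 and 99.2 for Foxa1/2cKO 2. The former value lies below both controls and the latter above both. *Tox* (chromosome 4, 6686353 to 6991557, minus strand), an HMG box factor without which CD4 cells fail to develop, was at 123 and 109.6 FPKM in control cells, 102 for Foxa1/2cKO 1 and 182 for Foxa1/2cKO 2. *Myb* (chromosome 10, 21124935 to 21160984, minus strand), which sustains DP survival and CD4 differentiation, was at 255 and 241 FPKM in control cells, 220.4 for Foxa1/2cKO 1 and 372 for Foxa1/2cKO 2. In both genes the step up in Foxa1/2cKO 2 was larger than the step down in Foxa1/2cKO 1. *Satb1* (chromosome 17, 51736187 to 51833290, minus strand), whose product loops chromatin at *Zbtb7b*, *Runx3* and the co-receptor genes, was at 548 and 567 FPKM in control cells, 524 for Foxa1/2cKO 1 and 660.3 for Foxa1/2cKO 2.

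The log2 fold changes were -0.06 for *Gata3* (SE 0.22), 0.24 for *Tox* (SE 0.29), 0.21 for *Myb* (SE 0.26) and 0.08 for *Satb1* (SE 0.14). Their adjusted p-values from limma lay between 0.886 and 0.97. Each took opposite signs when one or the other Foxa1/2cKO sample was left out: *Gata3* went from -0.36 without Foxa1/2cKO 2 to 0.25 without Foxa1/2cKO 1, *Tox* from -0.18 to 0.65, *Myb* from -0.17 to 0.58 and *Satb1* from -0.09 to 0.24. Foxa1/2cKO 1 below and Foxa1/2cKO 2 above both controls was found for these 4 of the 10 genes and for 18.4% of all genes tested.

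*Bcl11b* (chromosome 12, 107910403 to 108003602, minus strand), a zinc finger factor that maintains T-cell identity, stayed close to the controls in both Foxa1/2cKO samples. It was at 144 and 153 FPKM in control cells, 137 for Foxa1/2cKO 1 and 151 for Foxa1/2cKO 2, the last of these within the control range. Its log2 fold change was -0.04 (SE 0.09, limma adjusted p = 0.933).

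**Figure D2:**
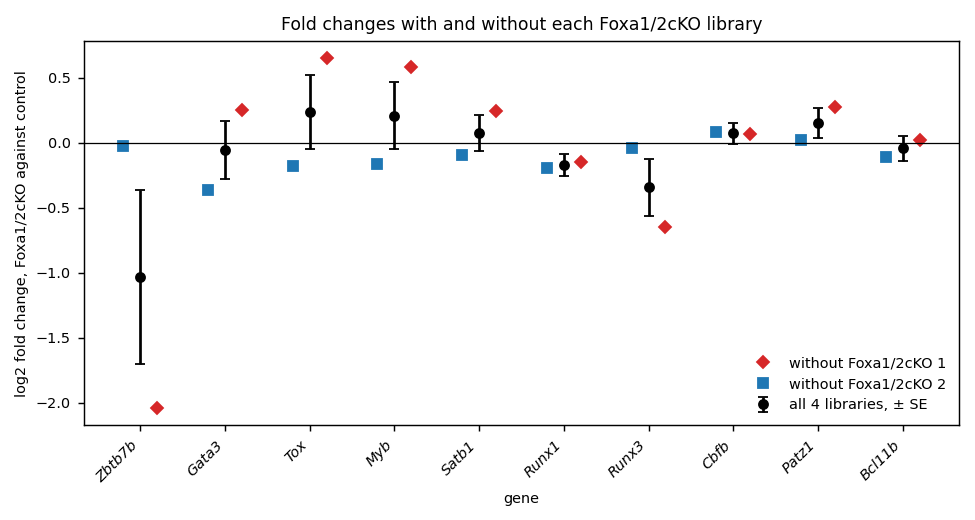
Log2 fold change of each factor on the log2(FPKM + 1) scale, Foxa1/2cKO against control: with all 4 samples (black, bars ± SE), without Foxa1/2cKO 1 (red diamonds) and without Foxa1/2cKO 2 (blue squares). *Runx1* and *Cbfb* stay close to 1 value, *Zbtb7b* moves from -0.03 to -2.04, and *Gata3*, *Tox*, *Myb*, *Satb1* and *Bcl11b* change sign.

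For the whole list, 0 reached a limma adjusted p under 0.05, against 0.00928% of all genes tested, and 0 had an unadjusted p under 0.05, against 4.55% (2.39% higher and 2.15% lower in Foxa1/2cKO). The 3 non-overlapping genes of 10 are close to the share of 36.7% over all genes, 18.9% being higher (2 of the 10) and 17.8% lower (1 of the 10). The mean was higher in Foxa1/2cKO for 5 of the 10 and for 51.3% of all genes. The median log2 fold change was 0.01 over the 10 and 0.01 over all genes. Without Foxa1/2cKO 2 the medians were -0.10 and -0.0088, and without Foxa1/2cKO 1 they were 0.15 and 0.02. The 2 Foxa1/2cKO samples differed by at least 0.5 on the log2 scale in 5 of the 10 genes and in 14.7% of all genes tested. The 2 controls did so in 0 of the 10 and in 2.43% of all genes. Without Foxa1/2cKO 1, 6 of the 10 reached a limma adjusted p under 0.05 (*Zbtb7b*, *Runx3*, *Tox*, *Myb*, *Patz1* and *Satb1*), as did 23.7% of all genes tested, which compares a single Foxa1/2cKO sample with the controls and assumes that it varies as they do. With an unadjusted p under 0.05 there were 7 of the 10, against 39.2% of all genes. Without Foxa1/2cKO 2, 0 of the 10 had an adjusted p under 0.05, against 0.176% of all genes, and 3 an unadjusted one, *Gata3*, *Myb* and *Runx1*, against 17.5%.

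The ratios between factors are free of any scaling between samples. The FPKM ratio of *Zbtb7b* to *Runx3*, the CD4 against the CD8 lineage factor, was 2.40 and 2.78 in control cells, 2.60 for Foxa1/2cKO 1 and 0.950 for Foxa1/2cKO 2. Foxa1/2cKO 1 lay between the controls, whereas *Zbtb7b* stood further below its control level than *Runx3* did for Foxa1/2cKO 2. *Zbtb7b* to *Gata3*, its upstream regulator, gave 0.486 and 0.686 in control cells, 0.733 for Foxa1/2cKO 1 and 0.110 for Foxa1/2cKO 2, so that the Foxa1/2cKO samples lay to either side of the controls. *Runx1* to *Runx3* gave 1.52 and 1.45 in control cells, 1.33 for Foxa1/2cKO 1 and 2.16 for Foxa1/2cKO 2, also to either side.

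Summed over *Runx1*, *Runx2* and *Runx3*, the DNA-binding Runx RNA relative to that of their partner *Cbfb* was 0.671 and 0.7104 in control cells against 0.597 and 0.526 for Foxa1/2cKO. This ratio was lower in both Foxa1/2cKO samples, by 0.30 on the log2 scale on average (exact two-sided permutation p = 0.333, the smallest that 2 samples against 2 allow). *Satb1* to *Bcl11b* was 3.82 and 3.72 in control cells against 3.83 and 4.38 for Foxa1/2cKO, a log2 difference of 0.12 (exact two-sided permutation p = 0.333) of which little was left in Foxa1/2cKO 1. In the other 3 ratios the groups overlapped, and the exact permutation p was 0.667 to 1. Adjusted over the 5 ratios, the p-values of the exact permutation test were 0.833 to 1.

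**Figure D3:**
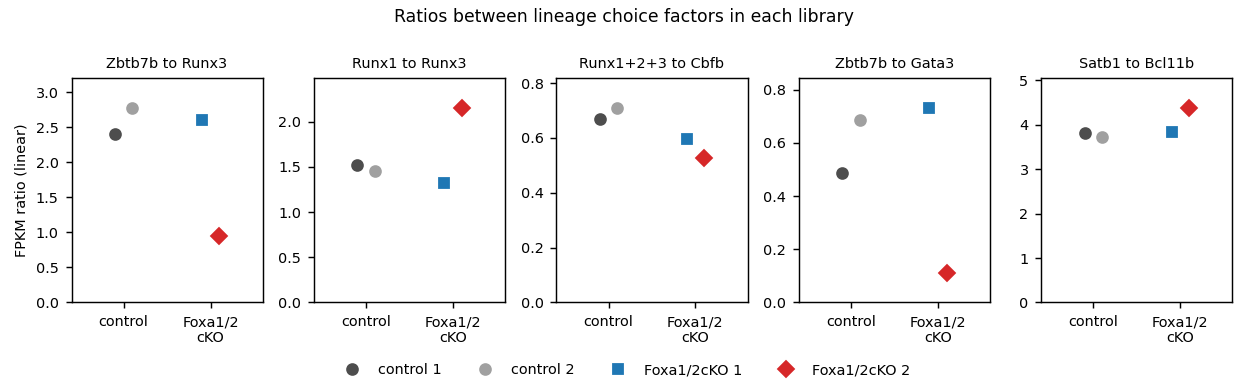
FPKM ratios between lineage choice factors in each sample (linear axes from 0), where Runx1+2+3 is the sum of *Runx1*, *Runx2* and *Runx3*. The ratio of *Zbtb7b* to *Runx3* is 0.950 in Foxa1/2cKO 2 and 2.40 to 2.78 elsewhere, and the Runx sum relative to *Cbfb* is lower in both Foxa1/2cKO samples.

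Markers of maturation moved with *Zbtb7b* and *Runx3* in Foxa1/2cKO 2. Of 5 genes that mark mature SP thymocytes, 4 were lowest in Foxa1/2cKO 2, as were 3592 of the 10776 genes tested. *Ccr7*, the chemokine receptor that guides selected cells to the medulla, was at 82.5 and 91.7 FPKM in control cells, 86.9 for Foxa1/2cKO 1 and 39.1 for Foxa1/2cKO 2. *Il7r*, the IL-7 receptor chain through which cytokine signals reach CD8 lineage cells, was at 33.7 and 44.1 FPKM in control cells, 41.5 for Foxa1/2cKO 1 and 13.4 for Foxa1/2cKO 2. *Klf2* (17.0 FPKM in Foxa1/2cKO 2 against 37.0 to 43.4 elsewhere) and the egress receptor *S1pr1* (6.40 against 12.3 to 13.9) had the same pattern.

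The co-receptor genes that define the sort were highest in Foxa1/2cKO 2, as were 4360 of the 10776 genes tested. *Cd4* was at 446 FPKM there and 342 to 352 in the other samples, *Cd8a* at 666 against 475 to 495, and *Cd8b1* at 974 against 592 to 668. Of 7 markers of preselection DP cells, the recombinase genes *Rag1* and *Rag2* were at 368 and 39.9 FPKM in Foxa1/2cKO 2 against 363 to 449 and 36.8 to 39.9 in the other samples, and the sum of the 7 was 952 to 1043 FPKM over the 4 samples. *Ptcra*, the pre-TCR chain, was lower in both Foxa1/2cKO samples, at 11.2 and 11.9 FPKM in control cells, 7.44 for Foxa1/2cKO 1 and 3.23 for Foxa1/2cKO 2 (unadjusted p = 0.0273, limma adjusted p = 0.863). In sorted bulk samples, fewer cells at a stage and less RNA per cell cannot be told apart, and the part of cell stage in the levels of *Zbtb7b* and *Runx3* was not tested.

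**Figure D4:**
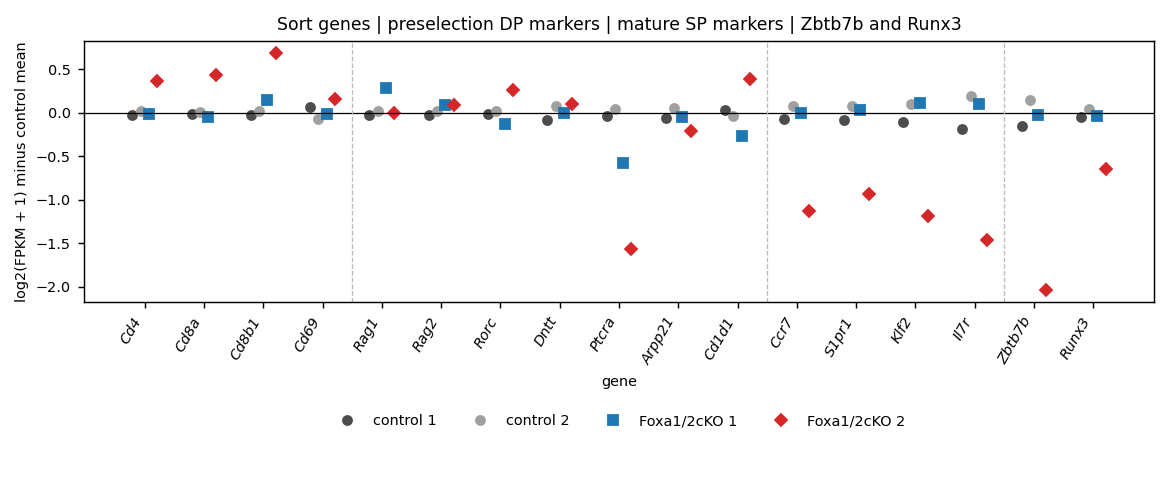
Log2(FPKM + 1) of each sample minus the mean of the controls, for the sort genes, preselection DP markers, 4 of the mature SP markers, and *Zbtb7b* and *Runx3*, from left to right. Foxa1/2cKO 2 (red diamonds) is low for *Ccr7*, *S1pr1*, *Klf2* and *Il7r* as for *Zbtb7b* and *Runx3*, and high for *Cd4*, *Cd8a* and *Cd8b1*.

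Other cell types were present at low levels. The summed FPKM of 5 B cell markers was 75.6 and 50.3 in control cells, 104 for Foxa1/2cKO 1 and 54.0 for Foxa1/2cKO 2, and that of 5 myeloid markers was 27.5 and 17.1 in control cells, 25.8 for Foxa1/2cKO 1 and 13.5 for Foxa1/2cKO 2. None of these 10 genes was at 0 in any sample. Both sums in Foxa1/2cKO 2 lay closer to control 2 than to the other samples, and their part in the levels of the lineage factors was not tested. The 5 thymic epithelial markers summed to 3.18 to 4.18 FPKM, most of it *Epcam*, and of the 5 erythroid markers *Alas2* alone was above 0, at 0.608 to 2.62 FPKM.

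Relatives of the 10 factors were mostly low. Of 12 paralogues, 8 were tested, 0 reached a limma adjusted p under 0.05 and 1 an unadjusted p under 0.05, against 0.00928% and 4.55% of all genes tested. This was *Tox4*, a ubiquitous HMG box gene of the Tox family, at 30.3 FPKM in each control, 34.4 for Foxa1/2cKO 1 and 40.3 for Foxa1/2cKO 2, with a log2 fold change of 0.29 (SE 0.11, unadjusted p = 0.0470, limma adjusted p = 0.863) that was 0.18 without Foxa1/2cKO 2. *Runx2*, the third Runx gene, was at 1.23 to 1.85 FPKM, far below *Runx1* and *Runx3* in every sample. The median log2 fold change of the 8 was -0.04 (-0.01 without Foxa1/2cKO 2 and 0.16 without Foxa1/2cKO 1), with 4 means higher and 4 lower in Foxa1/2cKO.

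Of 29 other regulators of the lineage choice, among them *Tcf7*, *Lef1*, *Ikzf1*, the E protein genes *Tcf3* and *Tcf12*, the STAT genes and chromatin regulators, 28 were tested and 0 passed, adjusted or unadjusted. Their means were higher in 18 and lower in 10, with a median log2 fold change of 0.07 that was -0.03 without Foxa1/2cKO 2 and 0.17 without Foxa1/2cKO 1. Non-overlapping groups were found for 9 of the 28, 4 higher and 5 lower, against 36.7% of all genes (18.9% higher and 17.8% lower). The lowest fold change among the 28 was that of *Il7r*, whose groups overlapped, at -0.68, and it was 0.10 without Foxa1/2cKO 2. *Il7r* is also among the mature SP markers.

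Genes of the lineage programmes downstream gave 0 unadjusted or adjusted calls from limma among 12 tested of 15 listed. For the CD4 programme, *Cd40lg*, which encodes the ligand through which CD4 T cells help B cells, was low in the same sample as *Zbtb7b*, at 24.9 and 34.6 FPKM in control cells, 26.8 for Foxa1/2cKO 1 and 9.01 for Foxa1/2cKO 2 (log2 fold change -0.86, and -0.12 without Foxa1/2cKO 2). *Cd4*, the other gene of that list, was highest in that sample (log2 fold change 0.17, and -0.01 without Foxa1/2cKO 2). For the CD8 programme, 10 of 13 genes were tested and the median log2 fold change was 0.07, from -0.57 to the 0.42 of *Cd8b1*. This median was 0.21 without Foxa1/2cKO 2 and -0.22 without Foxa1/2cKO 1. *Cd8b1* lay higher in both Foxa1/2cKO samples, by 0.15 without Foxa1/2cKO 2. In Foxa1/2cKO 2, 5 of the 10 lay below and 3 above the other samples. Of all 10776 genes tested, 3592 lay below and 4360 above.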

How the data were processed

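RNA was sequenced from 4 samples of sorted CD69+DP thymocytes, 2 control and 2 Foxa1/2cKO. The authors aligned reads to mm10 and counted them per gene with HTSeq, and the submitters' processing notes also name TopHat, Picard and DESeq2. The deposited values are FPKM per gene and sample. The step that turned counts into FPKM is not given in the sources used here. Steps between FPKM values gave whole reads for 100% of the 16069 genes above 0, within a tolerance of 0.01. These are the smallest whole read numbers, multiplied for genes with enough reads until the gene length was whole. True reads could still be a multiple of them, which would change the width of the intervals. The intervals cover counting error only and leave out variation between mice.

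Genes with at least 1 FPKM in at least 2 samples (10776) were tested with limma 3.58.1 in R 4.3.3 on log2(FPKM + 1), with a mean-variance trend, genotype as the only term and Benjamini-Hochberg adjustment. A fold change on this scale understates the change of low genes. The residual degrees of freedom were 2, with a prior of 2.69. The limma p-values set the difference between groups against the spread within them, moderated by the trend over all genes tested. They rest on these 4 samples. Ratios were compared with an exact two-sided permutation test in Python 3.11.15. The limma step was also run on simulated data whose spread was taken from the 2 controls. That run cannot show how limma does with the wider spread between the Foxa1/2cKO samples. The alternatives were another pseudocount, filter, scaling, threshold and variance trend, a replicate block, each sample left out, and, chosen after seeing the data, limma-voom on the recovered reads and a loess correction for gene length. The replicate number marks no shared animal in the labels.

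The 10 genes, the lists and the ratios were chosen with earlier results of these data known. Named were all 10 genes, the Foxa and sort genes, and list members with an unadjusted p under 0.05. Other list members and marker genes were named after their values were seen. Of the 5 mature SP markers, 1 is not reported here. Gene coordinates are from GENCODE M21 (GRCm38, the assembly of mm10), and promoter windows from RefSeq on GRCm38.p6.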

Additional observations from a re-analysis of the deposited data

How the results depend on the processing

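With all 4 samples, 0 of the 10 factors had an adjusted p under 0.05 from limma under each of the 8 alternatives that keep every sample, where their adjusted p lay between 0.832 and 0.998 and no fold change turned its direction. The count over all genes was 1, and it was 0 with a pseudocount of 0.1, with no filter, with a filter of 5 FPKM, with upper-quartile scaling and with limma-voom on the recovered reads. With the replicate block the count was 1 over all genes and 0 of the 10, and 378 genes had an unadjusted p under 0.05 against 490 without it. Deviations of same-numbered samples correlated at -0.06 across genes. With 2 samples per group, and Foxa1/2cKO 2 far from the others, this cannot exclude a shared sort. The labels name no pairs, so the replicate block was kept as an alternative only. With 1 sample left out in turn, the count over all genes ranged from 0 to 2559 and that of the 10 from 0 to 6, both highest without Foxa1/2cKO 1. The log2 fold change then ranged from -0.36 to 0.25 for *Gata3*, from -0.18 to 0.65 for *Tox*, from -0.17 to 0.58 for *Myb*, from -0.0906 to 0.24 for *Satb1* and from -0.11 to 0.0240 for *Bcl11b*. It ranged from -0.0106 to 0.36 for *Cd4*, from -0.0456 to 0.44 for *Cd8a* and from -0.0115 to 0.16 for *Cd69*. The log2 difference in ratio ranged from -1.44 to 0.0120 for *Zbtb7b* to *Runx3*, from -0.16 to 0.54 for *Runx1* to *Runx3* and from -2.39 to 0.34 for *Zbtb7b* to *Gata3*. The cause of these changes was not tested.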
